A study of Mus musculus with 6 samples.

Results

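Mouse embryonic stem cells of the RW4 line were compared after 2 small-molecule inducers given at the same dose of 1 µM: 4-hydroxytamoxifen (4OHT) and Shld1. The comparison rests on 4 of the 6 single-colour Affymetrix arrays of the series, the 2 titled for 4OHT and the 2 titled for Shld1, chosen by their titles alone. The other 2 arrays are of RW4 cells with no drug, and they entered the fit for the spread and are shown as the starting level. All groups shared a serum medium with leukemia inhibitory factor on gelatin, and total RNA was isolated with a column kit, per the labels' protocols. The labels give the induction system as ERT2 for the 4OHT arrays, FKBP for the Shld1 arrays and WT for the untreated ones, with every cell type written as RW4 ESC. They do not say whether the treated cells carried an ERT2 or FKBP fusion protein, so inducer and any such construct cannot be told apart. No source used here gives the length of treatment. The arrays of a group are called duplicates with no word on separate cultures, so each p-value reflects the scatter of these samples alone, which may be technical.

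4OHT is the active metabolite of tamoxifen and binds estrogen receptors; it is the usual ligand of ERT2, a mutated estrogen receptor domain that keeps a fused enzyme out of the nucleus until the drug binds. Tamoxifen and its metabolites are also known to bind proteins of the cholesterol pathway outside the estrogen receptors. Shld1 is a synthetic ligand of a mutated FKBP12 domain: proteins fused to that domain are degraded unless the ligand is bound. Both are used as switches on the premise that they leave the rest of the transcriptome alone, and the comparison at equal dose asks where the 2 differ in stem cells.

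Each value is a log2 signal per probe set as deposited, so a difference of 1 is a 2-fold difference. Of 35556 probe sets, 23410 carried at least 1 gene symbol and were tested, and 21789 carried exactly 1 and could be named. Size statements on single probe sets are limited to the 10420 with a mean over the 6 arrays above 5. Dim signals are compressed by background. That mean includes the inducer arrays, so a probe set can pass through the group where it is high. List medians and counts also take in dimmer members unless a mean above 5 is stated. Array values are given in the order replicate 1, replicate 2. Levels of different probe sets are not compared.

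The signals of 4OHT replicate 1 and Shld1 replicate 2 spanned less than those of the other arrays (the narrow arrays below), with SDs over all probe sets of 2.29 and 2.24 against 2.33 to 2.35. Among the brighter probe sets, the 4 pairings of a 4OHT with a Shld1 array had an SD of the log2 difference of 0.215 to 0.259. The 4OHT arrays differed from each other by an SD of 0.219 and the Shld1 arrays by 0.242. The arrays of the 2 inducers therefore lay about as far from each other as duplicates of 1 inducer did. The untreated pair differed by 0.165.

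No probe set passed the adjusted test: limma called 0 of 23410 (0.0%) after Benjamini-Hochberg adjustment, and the smallest adjusted p was 0.872. At an unadjusted p under 0.05 there were 1322 probe sets (5.65%), 625 higher with 4OHT (2.67%) and 697 lower (2.98%). Leaving out 1 array at a time moved that count between 860, without 4OHT replicate 1, and 2676, without Shld1 replicate 1. The adjusted count stayed at 0 in each of these fits. With 2 arrays per inducer the smallest p of an exact permutation test is 0.333, and no such test was run.

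The differences were small in size. Among the brighter probe sets the median difference, 4OHT minus Shld1, was -0.01 with an SD of 0.174, and 99.02% had a 95% interval inside 2-fold in either direction. For 80.12% it lay inside 1.5-fold. Both arrays of 1 inducer lay beyond both of the other at 31.0% of the brighter probe sets, 13.8% higher with 4OHT and 17.2% lower. Past 1.5-fold without overlap there were 49 (0.47%), 25 higher with 4OHT (0.24%) and 24 lower (0.23%), and 1 of these was past 2-fold (0.0096%). Leaving out an inducer array makes freedom from overlap easier to meet, so a count with fewer arrays cannot be set against the 49. Not all of the 49 stayed past 1.5-fold when 1 inducer array or both narrow arrays were left out. Membership of the set is therefore not stable to single arrays.

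**Figure D1:**
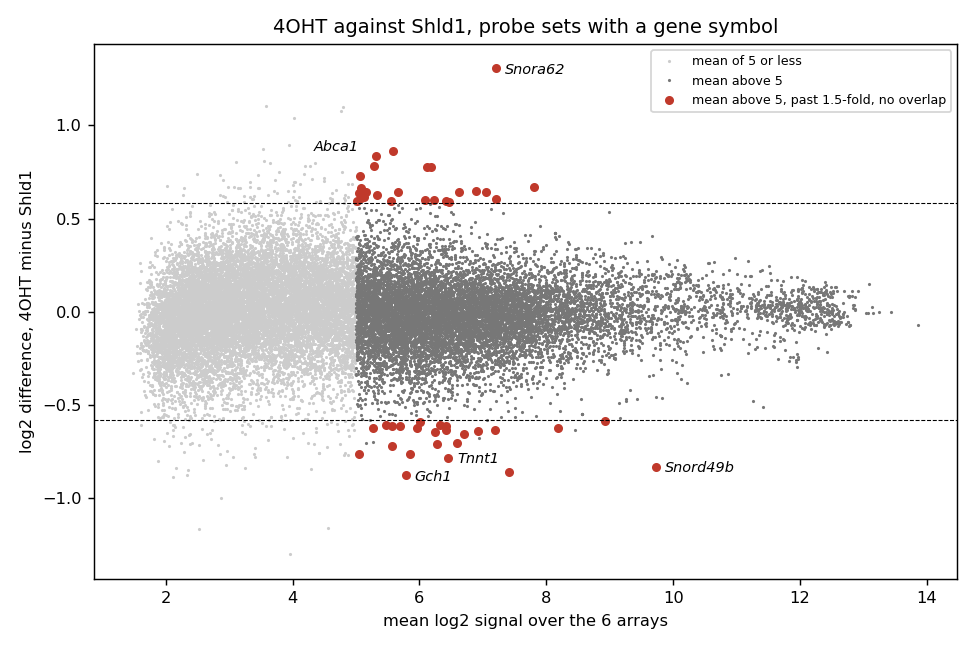
The mean log2 signal over the 6 arrays (x axis) is plotted against the log2 difference, 4OHT minus Shld1 (y axis), 1 point per probe set with a gene symbol; dashed lines mark 1.5-fold. The 49 red points have a mean above 5, do not overlap between the groups and lie past 1.5-fold, with Snora62 alone past 2-fold.

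The untreated level was set beside the 49. Of the 25 that were higher with 4OHT, the untreated mean lay between the 2 inducers for 20, nearer to Shld1 for 16 and nearer to 4OHT for 9. Of the 24 that were lower with 4OHT, it lay between for 18, nearer to Shld1 for 19 and nearer to 4OHT for 5. The 49 were chosen for a wide gap between the inducers, which by itself favours an untreated mean in between. These counts were not set against a share over all brighter probe sets, so nothing is read from them.

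Stem cell markers were well measured under either inducer, and all 10 had a mean above 5. Pou5f1, the core pluripotency factor, was at 10.38 and 10.45 with 4OHT and at 10.38 and 10.23 with Shld1, a difference of 0.11 (SE 0.13). Its partner Sox2 was at 10.80 and 10.64 against 10.67 and 10.54, a difference of 0.11 (SE 0.13). The homeobox factor Nanog was at 10.83 and 10.95 against 10.99 and 10.64, a difference of 0.077 (SE 0.15). The arrays of the inducers overlapped for all 3, and the 95% intervals were -0.20 to 0.41 for Pou5f1, -0.19 to 0.42 for Sox2 and -0.28 to 0.43 for Nanog. Without Shld1 replicate 2, the narrowest array, the difference of Nanog was -0.098. Of the stem cell markers, 3 were higher and 1 lower with 4OHT without overlap, where 12.3% of all genes with a mean above 5 were higher and 17.8% lower in that way. None of the 10 had an unadjusted p under 0.05.

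Markers of other lineages were mostly dim: the mean was above 5 for 3 of 8 endoderm, 2 of 8 trophoblast, 0 of 5 streak and mesoderm, 3 of 6 neural and 3 of 8 fibroblast markers. Averaged over each list and array, the 8 endoderm markers were at 5.05 and 4.99 with 4OHT and at 5.05 and 5.09 with Shld1. The 8 trophoblast markers were at 4.51 and 4.33 against 4.49 and 4.39, and the 5 streak and mesoderm markers at 3.89 and 3.75 against 3.65 and 3.88. The 6 neural markers were at 5.08 and 4.95 against 5.11 and 4.98, and the 8 fibroblast markers at 4.58 and 4.41 against 4.45 and 4.48. In each of these lists the arrays of the 2 inducers overlapped.

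The direct protein partners of the drugs came next. Esr1, the estrogen receptor alpha gene, was dim at 3.88 and 4.10 with 4OHT and at 3.94 and 4.38 with Shld1. Esr2, estrogen receptor beta, was also dim at 3.80 and 3.39 against 2.87 and 3.66. Neither separated the groups. Fkbp1a, which encodes FKBP12, was well measured at 7.98 and 7.89 against 7.97 and 7.76, a difference of 0.071 (SE 0.14). In bulk RNA, fewer cells with a transcript and less of it per cell cannot be told apart.

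Among 11 genes of estrogen receptors, their relatives and cofactors, the median difference was 0.12 against -0.0043 over all 19938 genes, each taken by its brightest probe set. Of these, 3 were higher with 4OHT without overlap and 0 lower, where 14.9% of all genes were higher and 15.6% lower in that way. The widest was Esrra, an orphan receptor of mitochondrial genes, at 5.65 and 5.42 against 5.42 and 4.86, with a difference of 0.40 (SE 0.19). The lower 4OHT array and the upper Shld1 array were both at 5.42 after rounding. Of 19 genes known as estrogen targets in other tissues, 4 were higher and 1 lower without overlap, against the same shares, and the median was 0.013. Ccnd1, the G1 cyclin, had 0.36 (SE 0.16), Myc had 0.21 (SE 0.15), and Stc2, a secreted glycoprotein, had -0.23 (SE 0.13). No member of either list had an unadjusted p under 0.05, where 5.66% of all genes did (2.57% higher and 3.09% lower).

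The proteins around FKBP12 followed. Of 14 FK506-binding proteins, 0 were higher and 1 lower without overlap, with a median of -0.035; 14.9% of all genes were higher and 15.6% lower in that way, and the counts of the next 3 lists stand against the same shares. Fkbp5, a steroid receptor co-chaperone, was at 6.06 and 6.70 with 4OHT and at 6.68 and 6.54 with Shld1, a difference of -0.23 (SE 0.21) that became 0.0955 without 4OHT replicate 1. Fkbpl was at 5.43 and 5.59 against 5.52 and 4.76, a difference of 0.37 (SE 0.24); without Shld1 replicate 2, the low array, it was -0.0081. Calcineurin is the phosphatase that FKBP12 inhibits when bound to FK506. Of its 15 subunits, NFAT factors and regulators, 4 were higher and 1 lower without overlap. The catalytic subunit gene Ppp3cc was at 4.77 and 4.85 against 5.27 and 5.27, a difference of -0.47 (SE 0.15), while Ppp3ca went the other way at 5.84 and 6.05 against 5.68 and 5.68 (0.27, SE 0.13). Of 15 genes around mTOR, the kinase that FKBP12 inhibits when bound to rapamycin, 1 was higher and 4 lower without overlap. The widest was Ddit4, a stress-induced inhibitor of mTOR, at 6.98 and 7.10 with 4OHT against 7.54 and 7.51 with Shld1 (-0.49, SE 0.13). Untreated cells had 7.59 and 7.55 for Ddit4, level with Shld1. Of 18 TGF-beta and BMP receptors and targets, whose type I receptors bind FKBP12, 4 were higher and 2 lower without overlap. Bmpr1a, a BMP receptor, was at 6.62 and 6.87 against 6.36 and 6.19 (0.47, SE 0.15), and Lefty1, a Nodal inhibitor, at 6.998 and 6.82 against 6.49 and 6.62 (0.35, SE 0.14).

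Snora62 (probe set 10590267), a box H/ACA small nucleolar RNA that guides pseudouridylation of ribosomal RNA, had the widest gap. It was at 8.04 and 7.62 with 4OHT, at 6.66 and 6.39 with Shld1 and at 7.16 and 7.41 in untreated cells. All 4 treated arrays lay outside the untreated pair, the 4OHT arrays above and the Shld1 arrays below. The difference was 1.31 (SE 0.18; 95% interval 0.89 to 1.73), or 2.47-fold between the mean log2 levels, with an unadjusted p of 8.82e-05 and an adjusted p of 0.872 (limma). Over the alternatives run it ranged from 0.97 to 1.51. With no overlap between the inducers, leaving out arrays could not turn its sign.

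Other small nucleolar RNAs lay on both sides. Of 54 with a symbol, 6 were higher and 10 lower with 4OHT without overlap, near the shares over all genes (14.9% and 15.6%), and the median was -0.11. Snord49b, a box C/D RNA, was at 9.04 and 9.25 against 10.12 and 9.84, with untreated arrays at 10.35 and 9.72 (-0.84, SE 0.22). Snora52 was at 10.86 and 11.34 against 11.69 and 11.54 (-0.51, SE 0.17). The list mean varied between duplicates as much as between inducers: relative to untreated it was -0.35 and -0.16 with 4OHT, 0.090 on Shld1 replicate 1 and -0.36 on Shld1 replicate 2. Its median turned to 0.078 without Shld1 replicate 1.

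Abca1 (probe set 10512949) encodes the transporter that exports cholesterol from cells and is a known target of the liver X receptors (LXR), sensors of oxidised sterols. Its signal was 5.81 and 6.03 with 4OHT, 5.16 and 5.02 with Shld1 and 4.87 and 4.96 without drug. The 4OHT arrays stood apart from the other 4 arrays, and the Shld1 arrays lay slightly above the untreated ones. The difference between inducers was 0.83 (SE 0.14; 95% interval 0.51 to 1.16), 1.78-fold, with an unadjusted p of 0.000323 and an adjusted p of 0.872 (limma). It ranged from 0.72 to 0.94 over the alternatives run, where leaving out arrays could not turn its sign either.

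Tnnt1, the slow skeletal muscle troponin T, and Gch1, GTP cyclohydrolase 1, the first enzyme of tetrahydrobiopterin synthesis, were on the lower side. Tnnt1 was at 5.86 and 5.99 with 4OHT, 6.73 and 6.69 with Shld1 and 6.78 and 6.68 without drug. The Shld1 and untreated arrays interleaved, and the 4OHT arrays lay below all of them. The difference was -0.79 (SE 0.13; 95% interval -1.09 to -0.49), with an unadjusted p of 0.000284 and an adjusted p of 0.872 (limma). Gch1 was at 5.35 and 5.07 with 4OHT, 5.89 and 6.30 with Shld1 and 6.19 and 5.91 without drug, a difference of -0.88 (SE 0.19). Of 13 genes of tetrahydrobiopterin and amine synthesis, 6 had a mean above 5. Among these 6 only Gch1 was lower without overlap, where 17.8% of genes with a mean above 5 were. Over all 13, 1 was higher and 2 lower without overlap, where 14.9% and 15.6% of all genes were. The median of the list was -0.051.

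The promoters of these 3 genes are shown because they are leading protein-coding genes whose 4OHT arrays lay apart from all 4 other arrays. Each window is the 250 bases before the start of transcription in RefSeq (GRCm38.p6), on the minus strand, written 5′ to 3′ in the direction of transcription: chr4:53159896-53160145 for Abca1, chr7:4515976-4516225 for Tnnt1 and chr14:47189414-47189663 for Gch1. Capitals mark the motifs found by an exact search of both strands.
Abca1: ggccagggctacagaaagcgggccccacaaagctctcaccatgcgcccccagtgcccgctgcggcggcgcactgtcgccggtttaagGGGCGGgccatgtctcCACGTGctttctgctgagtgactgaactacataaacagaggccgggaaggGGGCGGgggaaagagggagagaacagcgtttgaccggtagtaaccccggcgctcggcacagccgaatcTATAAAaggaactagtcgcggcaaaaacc
Tnnt1: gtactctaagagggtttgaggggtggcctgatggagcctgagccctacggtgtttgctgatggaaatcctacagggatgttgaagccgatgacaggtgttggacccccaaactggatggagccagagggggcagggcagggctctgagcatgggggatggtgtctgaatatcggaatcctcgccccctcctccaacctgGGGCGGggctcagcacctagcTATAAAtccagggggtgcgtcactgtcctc
Gch1: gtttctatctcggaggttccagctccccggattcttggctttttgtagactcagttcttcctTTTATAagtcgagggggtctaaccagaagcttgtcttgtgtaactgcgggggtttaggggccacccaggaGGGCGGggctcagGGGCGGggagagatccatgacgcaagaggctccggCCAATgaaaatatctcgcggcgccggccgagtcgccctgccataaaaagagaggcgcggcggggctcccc

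Positions count back from the start, with the base before it at -1. The Abca1 window held a TATA box (TATAAA) at -29, GC boxes (GGGCGG) at -163 and -97 and an E-box (CACGTG) at -147. Tnnt1 held a TATA box at -30 and a GC box at -51. Gch1 held GC boxes at -118 and -105, a CCAAT box (CCAAT) at -70 and TATAAA on the reverse strand at -188. Among 7095 windows of genes with a mean above 5, the GC box occurred in 63.37%, the CCAAT box in 37.56%, the E-box in 9.06% and TATAAA in 5.84%; over all 32851 windows the shares were 32.74%, 33.85%, 6.02% and 12.37%. TATAAA occurred in 4 of the 8 windows of leading genes higher with 4OHT and in 2 of the 9 of those lower. The estrogen response element (GGTCA and TGACC, 3 bases apart) and the LXR element (AGGTCA repeated 4 bases apart) had no exact match here. None of the 7095 windows held either one. That says only that these exact letters are not there. Variant forms of either element were not searched for, so the windows may hold them. A match is a description of letters and no evidence of binding.

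Genes that make cholesterol had lower means with 4OHT. Of 26 genes of cholesterol synthesis and its control, 20 could be measured, all with a mean above 5, and each of the 20 differences was negative. The arrays did not overlap for 13, all lower with 4OHT, where 17.8% of all genes with a mean above 5 were lower in that way and 12.3% higher. The median was -0.20 against -0.016 over all genes with a mean above 5, and 6 had an unadjusted p under 0.05, where 3.13% of those genes were lower at that level. None passed adjustment over all probe sets.

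Idi1, the isopentenyl diphosphate isomerase, was at 7.08 and 7.29 with 4OHT, 7.67 and 7.64 with Shld1 and 7.60 and 7.75 without drug (-0.46, SE 0.14), and its other probe set gave -0.44. Lss, which closes the sterol rings, was at 5.61 and 5.82 against 6.39 and 5.97 (-0.47, SE 0.17). Msmo1, a sterol C4 demethylase, was at 7.30 and 7.58 against 8.09 and 7.71 (-0.46, SE 0.17). Both Lss and Msmo1 were lowest on 4OHT replicate 1 and highest on Shld1 replicate 1, with the second arrays closer together. Mvd, the mevalonate decarboxylase, had -0.38 (SE 0.14), Dhcr7, which makes cholesterol in the last step, -0.35 (SE 0.14), and Fdps, the farnesyl diphosphate synthase, -0.33 (SE 0.14). Averaged over the 20 genes and set against the untreated mean, the 4OHT arrays were at -0.36 and -0.22 and the Shld1 arrays at 0.017 and -0.12. The narrow arrays were the lower ones of each pair, and without both of them the median was -0.20. Over all alternatives it ran from -0.27 to -0.17. The list was chosen with earlier results of these arrays known, so its direction is no independent evidence.

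Of 15 LXR targets and sterol transport genes, 6 were higher and 2 lower without overlap, with a median of 0.21, where 14.9% of all genes were higher and 15.6% lower. Beside Abca1, the desaturases Scd1 and Scd2 were higher: Scd1 at 8.42 and 8.60 against 8.25 and 8.03 (0.37, SE 0.15) and Scd2 at 8.64 and 8.70 against 8.31 and 8.36 (0.34, SE 0.13). Scd2 was at 8.30 and 8.37 without drug, so Shld1 and untreated arrays interleaved. Lpcat3, a phospholipid remodelling enzyme also known as an LXR target, went the other way at 6.595 and 6.67 against 7.23 and 6.85 (-0.41, SE 0.16), as did the lipoprotein receptor Scarb1 (-0.41, SE 0.16). Without both narrow arrays the median of the list was 0.0265.

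Genes of the fibroblast growth factor (FGF) and ERK pathway stood among the leading genes higher with 4OHT. This pathway drives stem cells out of naive pluripotency and induces its own inhibitors. Etv1, an ETS transcription factor downstream of it, was at 6.88 and 7.10 with 4OHT, 6.38 and 6.32 with Shld1 and 6.59 and 6.50 without drug (0.64, SE 0.14). Spry4, a feedback inhibitor, was at 6.77 and 6.89 against 6.31 and 6.28, with 6.42 and 6.30 untreated (0.53, SE 0.13). Il17rd, the membrane inhibitor also named Sef, was at 5.999 and 6.06 against 5.19 and 5.15, with 5.30 and 5.80 untreated (0.86, SE 0.17). Second probe sets did not show this: that of Etv1 gave 0.12 (SE 0.17), and the brighter one of Il17rd gave 0.21 (SE 0.22).

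A list of 20 FGF and ERK targets was drawn up after these values were seen. Of them 9 were higher and 3 lower without overlap, with a median of 0.18, where 14.9% of all genes were higher and 15.6% lower. Dusp6, the ERK phosphatase, was at 6.68 and 6.91 against 6.38 and 6.15 (0.53, SE 0.15), and Spred2 at 8.72 and 8.63 against 8.42 and 8.25 (0.34, SE 0.14). Etv5 had 0.30 (SE 0.14). Against them, the ligand Fgf4 was at 8.46 and 8.63 with 4OHT and 9.07 and 8.65 with Shld1 (-0.31, SE 0.17), and the inhibitor Spry2 overlapped (0.15, SE 0.16). The list mean, set against untreated, was 0.019 and 0.056 with 4OHT, -0.035 on Shld1 replicate 1 and -0.22 on Shld1 replicate 2. Without Shld1 replicate 2 the median was -0.027.

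The remaining leading genes higher with 4OHT had differences of 0.53 to 0.78. Prp2, a proline-rich protein gene, was at 6.65 and 6.36 against 5.81 and 5.65 (0.78, SE 0.16). Eya1, a developmental transcription cofactor, was at 5.81 and 5.64 against 5.11 and 4.77 (0.78, SE 0.18). Gli3, a Hedgehog transcription factor, was at 5.44 and 5.24 against 4.77 and 4.72 (0.59, SE 0.13). With untreated arrays at 4.98 and 4.995, Gli3 passed the cut of 5 through its 4OHT arrays alone. In all 3 the untreated mean lay between the inducers. Sft2d2, of vesicle transport, had 5.86 and 5.94 against 5.33 and 5.18, and here the untreated arrays at 5.68 and 5.98 sat with 4OHT (0.64, SE 0.15). Tns1, a focal adhesion protein, had 0.56 (SE 0.13) on the leading probe set and -0.21 to 0.53 on its others. Rbm12b2, an RNA-binding protein, was at 7.49 and 7.63 against 7.08 and 6.97 (0.53, SE 0.13). Olfr401 was at 5.62 and 5.45 against 4.77 and 5.03 (0.64, SE 0.15), with 4.76 and 4.61 untreated. Only its 4OHT mean was above 5, so Olfr401 passed the cut through that group alone. It belongs to the olfactory receptors, a large family of close relatives whose 1027 measured genes had a median level of 2.39.

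On the lower side, several leading genes encode mitochondrial proteins. Coa6, an assembly factor of cytochrome c oxidase, was at 6.01 and 5.99 with 4OHT, 6.56 and 6.66 with Shld1 and 6.30 and 6.44 without drug (-0.61, SE 0.13). Tspo, the outer membrane translocator protein that binds cholesterol, was at 6.27 and 6.53 against 7.11 and 7.005, with 6.72 and 6.62 untreated (-0.66, SE 0.14). Mrpl47, of the mitochondrial ribosome, was at 5.73 and 5.70 against 6.29 and 6.39, with 5.93 and 5.71 untreated (-0.63, SE 0.14), and -0.28 on its other probe set. For Coa6 and Tspo the untreated arrays lay between, so that the gap had a part above and a part below the starting level.

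Lists of mitochondrial genes were then drawn up, after these values were seen. Of 99 respiratory chain subunits and assembly factors, 5 were higher and 35 lower with 4OHT without overlap, with a median of -0.10, where 14.9% of all genes were higher and 15.6% lower. Sdhaf4, an assembly factor of succinate dehydrogenase, was at 6.51 and 6.74 against 7.38 and 7.15 (-0.64, SE 0.15), Ndufa7, a complex I subunit, at 8.49 and 8.73 against 9.32 and 9.08 (-0.59, SE 0.15), and Ndufaf5 had -0.42 (SE 0.13). Of 77 mitochondrial ribosomal proteins, 1 was higher and 26 lower without overlap, with a median of -0.11; all 77 had a mean above 5, where 12.3% of genes were higher and 17.8% lower. Mrpl30 had -0.46 (SE 0.15). The respiratory chain mean, set against untreated, was -0.14 and -0.070 with 4OHT and 0.080 and -0.053 with Shld1. Without Shld1 replicate 1 the medians were -0.0015 for the respiratory chain and -0.016 for the mitochondrial ribosome. The 57 cytosolic ribosomal proteins had a median of 0.0080, with 8 higher and 9 lower without overlap, near the shares over all genes.

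Other leading genes lower with 4OHT were S100a6, Fabp5, Tmem41a, Cby1, Alkbh2, Tsen15 and Nupr1l, with differences of -0.76 to -0.57. S100a6, a calcium-binding protein, was at 6.85 and 6.78 against 7.58 and 7.32, with 7.35 and 7.26 untreated. Fabp5, a fatty acid carrier, was at 4.98 and 5.16 against 5.61 and 5.75, with 5.70 and 5.63 untreated, and its brighter probe set gave -0.55. Tmem41a was at 5.93 and 5.82 against 6.62 and 6.42. Cby1, a beta-catenin binding protein of the ciliary base, was at 6.68 and 6.79 against 7.42 and 7.22, with 7.19 and 7.10 untreated. For S100a6, Fabp5, Tmem41a and Cby1 the 4OHT arrays lay below all untreated arrays.

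In the last 3 the gap lay mainly on the Shld1 side. Nupr1l, a relative of the stress-induced Nupr1, was at 5.63 and 5.58 with 4OHT, 6.15 and 6.29 with Shld1 and 5.40 and 5.15 without drug, so both inducers were above untreated and Shld1 the more so. Alkbh2, a DNA repair dioxygenase, was at 6.20 and 6.19 against 6.72 and 6.80, with 6.42 and 6.28 untreated. Tsen15, a subunit of the tRNA splicing endonuclease, was at 4.50 and 4.93 against 5.59 and 5.38, with 4.96 and 4.93 untreated. This probe set passed the cut of 5 through its Shld1 arrays alone, and the brighter probe set of Tsen15 gave -0.14 (SE 0.15).

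**Figure D2:**
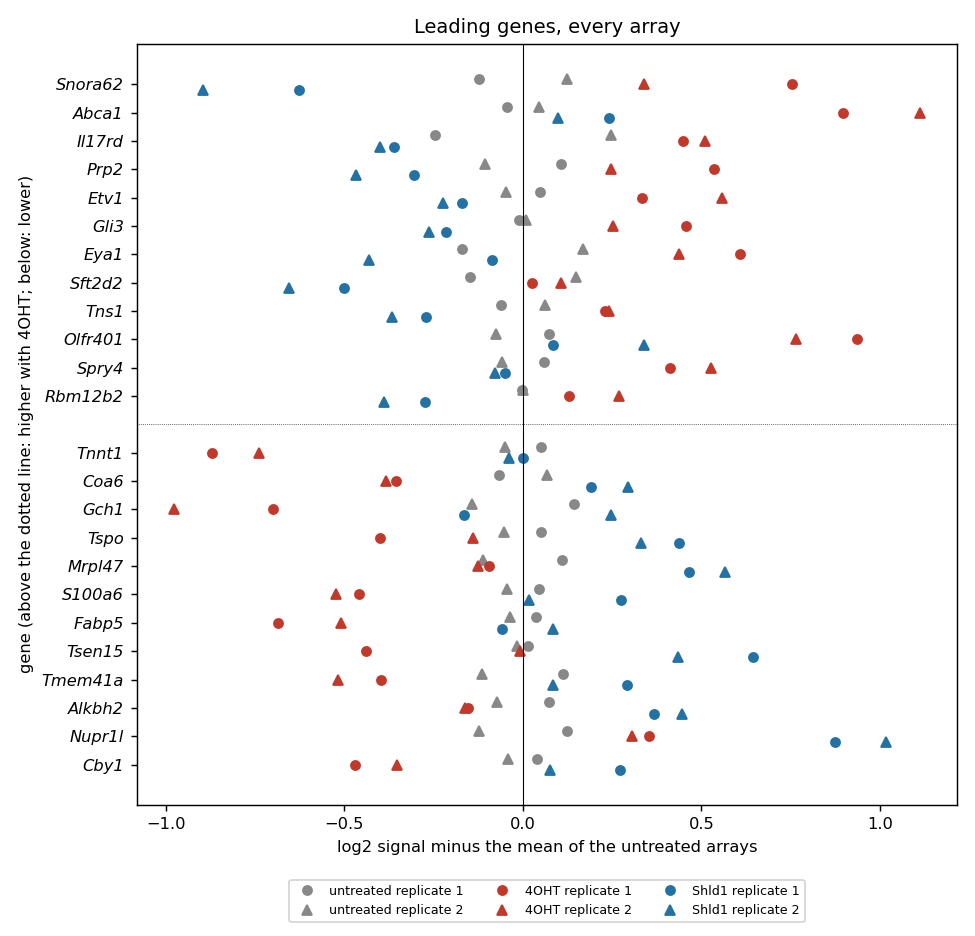
The log2 signal of each array minus the mean of the untreated arrays (x axis) is shown for the 12 leading genes higher and the 12 lower with 4OHT (y axis); circles are replicate 1 and triangles replicate 2. Abca1, Tnnt1 and Gch1 have Shld1 points close to the untreated ones, while Snora62 has the 4OHT and Shld1 points on opposite sides of untreated.

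Naive genes, which mark the ground state, and genes of the next state were looked at separately. Of 17 naive genes, 5 were higher and 2 lower with 4OHT without overlap, with a median of 0.060, where 14.9% of all genes were higher and 15.6% lower. Tcl1, an AKT cofactor, was at 7.55 and 7.498 against 7.34 and 6.94 (0.39, SE 0.16) and the naive factor Tbx3 at 9.03 and 9.08 against 8.87 and 8.63 (0.31, SE 0.14). Of 13 formative and primed genes, which mark the step toward the epiblast, 1 was higher and 7 lower, against the same shares, with a median of -0.12. Otx2, the epiblast transcription factor, was at 6.93 and 7.28 against 7.53 and 7.52, with 7.67 and 7.61 untreated (-0.42, SE 0.15). Dnmt3a, a de novo DNA methyltransferase, was at 6.85 and 7.13 against 7.33 and 7.45, with 7.28 and 7.40 untreated (-0.40, SE 0.15). In both, every 4OHT array lay below every other array. Zic5 gave -0.47 (SE 0.18) on 1 probe set and -0.031 on the other. Without both narrow arrays the median of this list was -0.036.

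Among stress genes, Bnip3, a hypoxia-induced mitophagy receptor, was at 7.53 and 8.38 with 4OHT, 8.36 and 8.82 with Shld1 and 8.86 and 8.80 untreated (-0.63, SE 0.27). The spread between its duplicates was as wide as the gap, the arrays overlapped, and without both narrow arrays the difference was 0.023. Its other probe set gave -0.62 (SE 0.26). Of 26 hypoxia and glycolysis genes, 0 were higher and 7 lower without overlap, where 14.9% of all genes were higher and 15.6% lower, and the median of -0.074 became 0.064 without 4OHT replicate 1. In a list of 24 genes for unfolded proteins and amino acid stress, 1 was higher and 9 lower, against the same shares, with a median of -0.13. Trib3, a pseudokinase induced by ATF4, was at 6.57 and 6.90 against 7.29 and 6.91 (-0.36, SE 0.19), Ddit3 at 6.86 and 7.09 against 7.38 and 7.16 (-0.30, SE 0.15), and the serine enzyme Psat1 at 9.27 and 9.28 against 9.59 and 9.48 (-0.26, SE 0.13). None of the 24 had an unadjusted p under 0.05. The mean of this list was below untreated on both 4OHT arrays (-0.23 and -0.18) and on Shld1 replicate 2 (-0.18), and level with it on Shld1 replicate 1 (-0.0036).

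The cell cycle lists gave small values. All 18 G2 and M phase genes had negative differences, from -0.27 for Aurkb to -0.014, with 4 of them free of overlap, where 17.8% of genes with a mean above 5 were lower in that way; the median of -0.10 was -0.023 without 4OHT replicate 1. The 19 S phase genes had a median of -0.021. Of 28 histone genes chosen by symbol, 0 were higher and 12 lower with 4OHT without overlap (14.9% and 15.6% of all genes), with a median of -0.18. Most belong to the replication-dependent clusters, while H1f10 is a replication-independent linker histone outside them. The linker histone genes H1f10 and H1f2 were at 7.05 and 7.26 against 7.60 and 7.78 (-0.53, SE 0.14) and at 6.22 and 6.26 against 6.67 and 6.67 (-0.43, SE 0.13). H2ac1 had -0.51 (SE 0.18). Histone genes are near-identical copies, so a probe set may read several of them. Without both narrow arrays the histone median was -0.34, and without Shld1 replicate 1 it was -0.071.

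The p53 targets (14 genes), NRF2 targets (19) and homologous recombination genes (19) had medians of 0.0018, 0.023 and 0.0385. In the germ line list of 17, 2 were higher and 6 lower without overlap, where 14.9% of all genes were higher and 15.6% lower. Mael, a piRNA pathway gene, was at 5.16 and 5.25 against 5.83 and 5.55, with 5.92 and 5.93 untreated (-0.48, SE 0.14), and Dazl, an RNA-binding protein of germ cells, at 5.26 and 5.34 against 5.61 and 5.96 (-0.49, SE 0.18). Both genes had their 4OHT arrays below all 4 others.

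**Figure D3:**
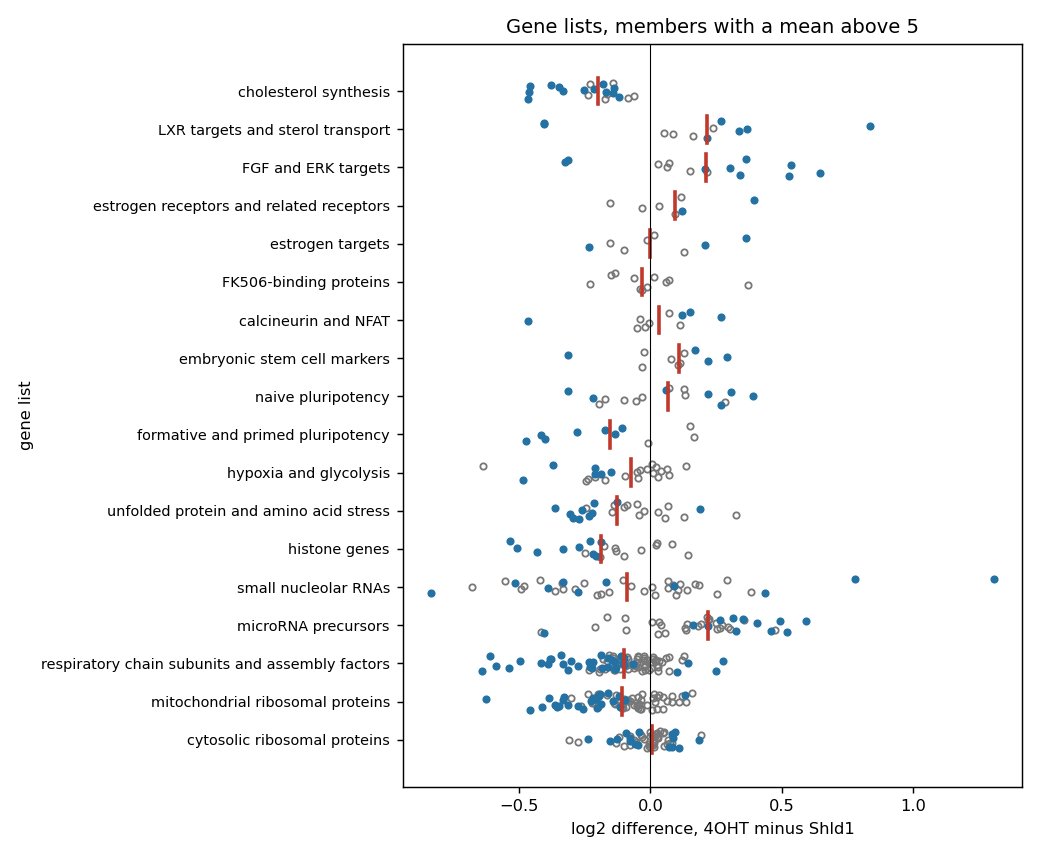
The log2 difference, 4OHT minus Shld1 (x axis), is shown for each list member with a mean above 5 (points), by gene list (y axis); filled points are free of overlap between the inducers, open points are not, and red bars are list medians. All 20 cholesterol synthesis genes lie below 0, and most of the 38 microRNA precursors lie above it.

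Precursors of microRNAs are read on these arrays as total RNA, not as mature molecules. Of 291 with a symbol only 38 had a mean above 5. Of those 38, 32 differences were positive, where 4016 of the 8729 genes with a mean above 5 had a positive one. Without overlap 11 of the 38 were higher and 1 lower, where 12.3% of genes with a mean above 5 were higher and 17.8% lower. The median of the 38 was 0.22. Over all 291 the median was 0.012, with 56 higher and 47 lower without overlap, where 14.9% and 15.6% of all genes were. The brighter ones thus leaned to 4OHT while the list as a whole did not, and the median over all turned to -0.087 without Shld1 replicate 1. Whether the lean is particular to microRNAs was not tested. Of 1027 olfactory receptors 4 had a mean above 5, and 3 of these had positive differences. Olfr401 was among them and passed the cut through its 4OHT arrays alone. Over all 1027, 442 differences were positive and 585 negative. Among 3520 probe sets without a symbol and with a mean above 5, 248 (7.05%) were past 1.5-fold and free of overlap. The share among those with a symbol was 0.47%. Of the 248, 172 were higher with 4OHT, where 25 of the 49 with a symbol were. The cut at 5 includes the inducer arrays, so a member can pass through the group where it is high. The mature sequences of the 4 whose values are given next are shown with the seed, bases 2 to 8, in capitals, from RefSeq (GRCm38.p6), all on the plus strand; no 2 of them share a seed. Mir708 lies at chr7:96249450-96249472 (5p) and chr7:96249496-96249517 (3p), and Mir212 at chr11:75173403-75173425 and chr11:75173443-75173464. Mir341 lies at chr12:109611521-109611541 and chr12:109611556-109611576, and Mir194-1 at chr1:185313325-185313346 and chr1:185313360-185313381.
mmu-miR-708-5p: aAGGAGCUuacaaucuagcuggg
mmu-miR-708-3p: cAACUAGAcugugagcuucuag
mmu-miR-212-5p: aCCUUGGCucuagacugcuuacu
mmu-miR-212-3p: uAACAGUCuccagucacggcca
mmu-miR-341-5p: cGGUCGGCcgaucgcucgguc
mmu-miR-341-3p: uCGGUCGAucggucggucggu
mmu-miR-194-5p: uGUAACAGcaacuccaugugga
mmu-miR-194-1-3p: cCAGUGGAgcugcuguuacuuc

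Mir708 was at 6.61 and 7.23 with 4OHT, 6.09 and 6.58 with Shld1 and 6.16 and 6.14 untreated (0.59, SE 0.23). The lower 4OHT array was barely above the upper Shld1 array. Mir212 was at 6.07 and 5.56 against 5.39 and 5.20, with 5.42 and 5.41 untreated (0.52, SE 0.18). Mir341, from the imprinted Dlk1-Dio3 region, was at 6.82 and 6.47 against 6.10 and 6.27, with 6.27 and 6.12 untreated (0.46, SE 0.16). For these 3 the 4OHT arrays lay above every other array. Mir194-1 was the 1 of the 38 that was lower without overlap, at 5.13 and 5.04 against 5.46 and 5.52, and both inducers were above its untreated arrays at 4.54 and 4.75 (-0.41, SE 0.14).

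A few dim genes with a mean of 5 or less are given by value only. Moxd1, a monooxygenase, was at 3.18 and 3.19 with 4OHT, 4.30 and 4.68 with Shld1 and 4.06 and 4.37 untreated. Zfp345, a zinc finger gene of a large family, was at 3.65 and 4.15 against 2.80 and 2.78, with 4.23 and 3.91 untreated, so here the Shld1 arrays stood apart. Neurog3, the endocrine progenitor factor, was at 3.94 and 3.93 against 4.72 and 4.83, with 4.24 and 4.12 untreated. Mus81, a crossover nuclease, was at 4.00 and 3.88 against 4.74 and 4.57, with 4.40 and 4.45 untreated. Arrays did not overlap between the inducers in any of the 4, and all 4 had an adjusted p of 0.872 (limma). They belong to a fixed set chosen with earlier results of these data known, so their lack of overlap is no independent result. Over all genes 14.9% were higher and 15.6% lower without overlap.

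A measured property of the genes moved with the comparison. Over 8484 protein-coding genes with a mean above 5, the difference between the inducers had a Spearman rho of 0.139 with the length of the gene on the genome; genes are not independent replicates. Among the 1697 shortest of these genes the median difference was -0.044, with 173 genes higher and 430 lower without overlap. Among the 1697 longest it was 0.018, with 274 higher and 196 lower. By pair of arrays, rho was 0.038 and -0.025 for 4OHT replicate 1 against the Shld1 arrays, and 0.258 and 0.184 for 4OHT replicate 2. It was -0.222 for 4OHT replicate 1 minus replicate 2 and -0.011 for the untreated pair. The 20 protein-coding genes among the 25 higher past 1.5-fold had a median length of 25494 bases, against 12317 for the 20 among the 24 lower. The part of gene length in the values of the gene groups was not tested.

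**Figure D4:**
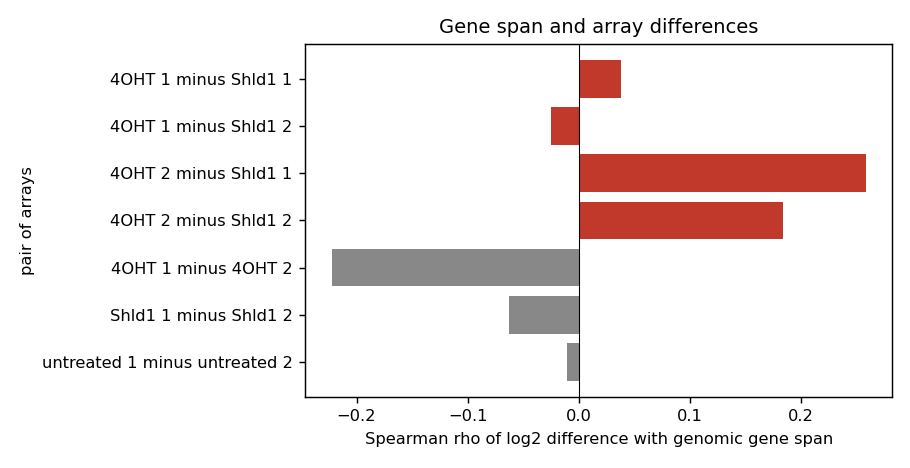
Bars give Spearman's rho between genomic gene length and the log2 difference of each pair of arrays (x axis, no unit), over 8484 protein-coding genes; red bars pair a 4OHT with a Shld1 array and grey bars pair duplicates (y axis). The bars of 4OHT replicate 2 against either Shld1 array reach 0.258 and 0.184, and the bar of the 4OHT duplicates reaches -0.222.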

How the data were processed

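RNA of the 6 arrays was measured as 1 log2 value per probe set, as deposited by the authors; the log2 scale was read from the value range, and background correction and normalization are not given in the sources used here. Per the submitters' processing notes limma 3.14 was used, with no role named. Names came from the platform annotation of the arrays, with 21698 of the 21789 single symbols matched to a current gene record by Entrez identifier.

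The log2 values as deposited were fitted with limma 3.58.1 in R 4.3.3: a mean per group over 6 arrays, empirical Bayes moderation (3 residual and 5.22 prior degrees of freedom), two-sided tests, Benjamini-Hochberg adjustment over 23410 probe sets, threshold 0.05. The median SE of a difference was 0.154; the number of arrays limits the precision. The step was tested on simulated data. A gene in a list was taken by its brightest probe set; 33 lists were described without set tests.

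Named were the 12 highest and 12 lowest moderated statistics among probe sets with 1 symbol, a mean above 5 and no overlap; a fixed set of genes; and up to 4 members per list. Genes singled out beyond these (Dhcr7, Fdps, Scarb1, Etv5, Spry2) were chosen after their values were seen. The comparison, rule and lists were chosen with earlier results of these data known. Alternatives varied normalization, filters, probe sets, moderation, weights and arrays.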

Additional observations from a re-analysis of the deposited data

How the results depend on the processing

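Adjusted calls were 0 under every alternative run, with smallest adjusted p-values from 0.0832 (intensity trend in the moderation) to 1.0. Probe sets with an unadjusted p under 0.05 went from 1322 to 679 when probe sets with a mean above 5 were fitted alone and to 868 with array weights, and ranged from 860 to 2676 with 1 array left out. The 49 past 1.5-fold without overlap became 297 with every probe set of the table, since 3520 bright probe sets without a symbol added 248 (172 higher with 4OHT); with 1 array left out they ranged from 49 to 212, and without both narrow arrays they were 159. The other settings stayed within 1.5 times. Cyclic loess and the joint removal of 4OHT replicate 1 and Shld1 replicate 2 were chosen after seeing the data. The labels tie no replicate number to a shared batch, and same-numbered 4OHT and Shld1 arrays deviated with r = -0.19; with the replicate block there were 0 calls and 1115 probe sets with an unadjusted p under 0.05.

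None of the 24 leading genes turned sign, but they were chosen free of overlap, so leaving out arrays could not turn it. Single-gene differences that turned sign are given next, and none of these genes was called. The cause was not tested. With 1 array left out, differences ran from -0.0982 to 0.2514 for Nanog, -0.1614 to 0.0993 for Esrrb, -0.3866 to 0.0518 for Esr1, -0.0645 to 0.7253 for Esr2, -0.0324 to 0.1741 for Fkbp1a, -0.5528 to 0.0955 for Fkbp5, -0.0081 to 0.7486 for Fkbpl and -0.0479 to 0.3498 for Spry2. Without both narrow arrays they were -0.0277 for Sox2, -0.0403 for Nanog, 0.162 for Esr1, -0.0756 for Fkbp1a, 0.0258 for Fkbp5 and 0.0234 for Bnip3. Esr1 and Esr2 are dim, so for them only the sign is read and not the size. Of 560 list medians, 22 moved by more than the spread between replicates and 538 did not.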
